A study of Homo sapiens with 10 samples.

Results

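The C/EBP genes were described in NB4, a human line of acute promyelocytic leukemia. They were taken by symbol, as the protein-coding rows named CEBPA, CEBPB, CEBPD, CEBPE, CEBPG and CEBPZ, and all 6 were found among the 60603 genes that each table lists. In the knockdown experiment, NB4 cells were transduced with the lentiviral pLKO.1 puro vector, either empty (EV) or carrying shA1 or shB2, hairpins against GSE1, and harvested after 48 h. In the inhibitor experiment, NB4 cells were treated for 24 h with DMSO or with 2 µM of the LSD1 inhibitor MC2580. The sample titles spell it MC280, and no transduction is stated for these cells. Each of the 5 groups had 2 replicates, which gives 6 libraries in the first experiment and 4 in the second.

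The value read for each gene was its base mean, which is the authors' mean of size-factor-normalized counts over the libraries they compared. The column read for the knockdown experiment is named for shB2 alone. That it covers all 6 libraries was assumed and could not be checked. A base mean carries no spread and does not separate the groups. No difference between EV and a hairpin, or between DMSO and MC2580, was therefore tested, and no value per library, SD or library depth was analysed here. The base means of all genes summed to 40543130 in the knockdown experiment and to 41201112 in the inhibitor experiment. To set the experiments side by side, each base mean was divided by its table's sum and expressed as parts per 1000000 of that sum (ppm). To set genes side by side, this share was divided by the gene's merged exon length in kb.

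C/EBP proteins (CCAAT/enhancer-binding proteins) are transcription factors of the basic leucine zipper (bZIP) class, which bind DNA as dimers formed within the family or with related bZIP proteins. C/EBPα, encoded by CEBPA, drives commitment of progenitors to the granulocytic lineage, and CEBPE is needed for late granulocyte maturation and secondary granules. CEBPB and CEBPD are induced in inflammatory and emergency responses, and CEBPG encodes a short partner that lacks a strong activation domain. CEBPZ shares the name but encodes a CCAAT-binding protein outside the bZIP class.

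Among the granulocytic factors, CEBPA had a base mean of 6502 in the knockdown experiment and 6303 in the inhibitor experiment. Scaled by length, its level was 61.7 ppm per kb in the first and 58.8 in the second, above 96.4% and 96.0% of the protein-coding genes that were not at 0. CEBPE had a base mean of 2263 in the knockdown experiment and 4998 in the inhibitor experiment. Its length-scaled level was 31.6 ppm per kb in the knockdown experiment and 68.8 in the inhibitor experiment, at percentiles 92.3 and 96.6. Per length, CEBPE was below CEBPA in the knockdown experiment and above it in the inhibitor experiment, while its base mean was below that of CEBPA in both.

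Between the inducible factors, CEBPD was the higher in both experiments. CEBPD had a base mean of 1579 in the knockdown experiment and 3368 in the inhibitor experiment, or 31.1 and 65.3 ppm per kb. CEBPB had base means of 508 and 490, the lowest of the family in both. Its length-scaled levels of 6.81 and 6.47 ppm per kb still lay above 69.9% and 70.5% of the protein-coding genes. In the knockdown experiment CEBPA was 9.05-fold above CEBPB, and in the inhibitor experiment CEBPE was 10.6-fold above CEBPB, both per length.

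CEBPG had base means of 2370 and 2270, and its length-scaled levels of 14.4 and 13.6 ppm per kb put it below all members but CEBPB in each experiment. CEBPZ had the highest base mean in the knockdown experiment, at 6842, and the second highest in the inhibitor experiment, at 5920. Scaled by length, CEBPZ came to 48.1 and 40.9 ppm per kb, which is below CEBPA in both experiments.

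The order of the length-scaled levels in the knockdown experiment was CEBPA, CEBPZ, CEBPE, CEBPD, CEBPG and CEBPB. In the inhibitor experiment it was CEBPE, CEBPD, CEBPA, CEBPZ, CEBPG and CEBPB. CEBPE and CEBPD were 1.02-fold apart in the first and 1.05-fold apart in the second. This closeness depended on the length used. With the longest transcript CEBPE came to 44.1 and 95.8 ppm per kb, and with the median coding transcript to 46.9 and 102. CEBPD stayed at 31.1 and 65.3 with either. CEBPD and CEBPA were 1.11-fold apart in the inhibitor experiment. Whether neighbours in these orders differ beyond the spread of the libraries was not tested, as pooled means have no spread. With the median coding transcript as the length, CEBPZ moved to the top in the knockdown experiment and to the second place in the inhibitor experiment.

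**Figure D1:**
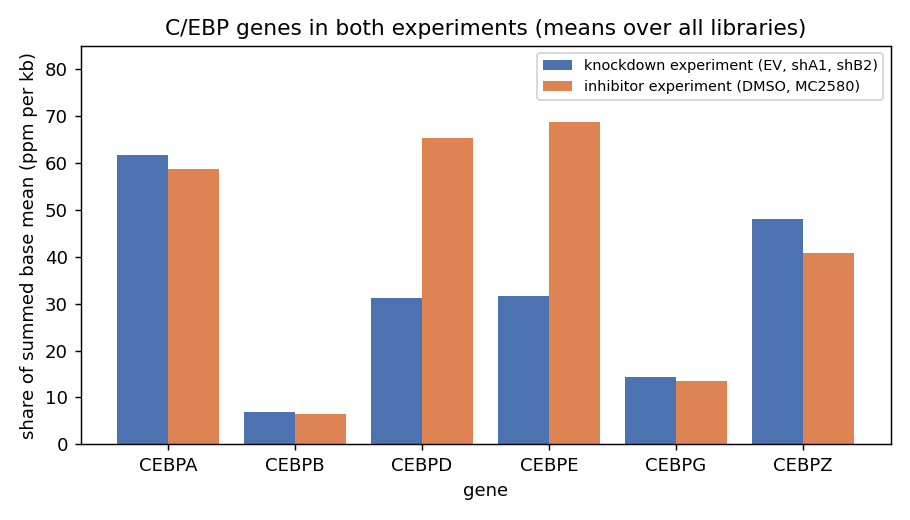
Bars give the share in ppm per kb of each C/EBP gene (linear axis from 0). Values pool the 6 libraries assumed for the knockdown experiment (blue) and the 4 of the inhibitor experiment (orange), so there are no error bars. CEBPD and CEBPE stand at 31.1 and 31.6 in the knockdown experiment and at 65.3 and 68.8 in the inhibitor experiment, while the shares of the other 4 genes in the inhibitor experiment were 0.852 to 0.954 of those in the knockdown experiment (0.908 to 1.02 under median-of-ratios scaling).

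CEBPD and CEBPE were the C/EBP genes whose shares differed most between the experiments. The share of CEBPE was 2.17-fold higher in the inhibitor experiment than in the knockdown experiment, a log2 ratio of 1.12. For CEBPD the share was 2.10-fold higher, a log2 ratio of 1.07. Among the 10916 protein-coding genes whose base means reached 50 in both tables, 36 had a larger ratio than CEBPE and 51 a larger ratio than CEBPD. The median log2 ratio of these genes was -0.09, with a range from -0.89 at the 5th percentile to 0.60 at the 95th, and 95.8% of them lay within 2-fold.

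The other members lay near the middle of that distribution. The log2 ratio was -0.07 for CEBPA and for CEBPB, -0.09 for CEBPG and -0.23 for CEBPZ, the last at percentile 37.3. Under median-of-ratios scaling the direction turned for 3 of them, with folds of 1.02 for CEBPA, 1.01 for CEBPB and 1.005 for CEBPG, and CEBPZ was at 0.908. Of the 6 libraries taken as pooled in the knockdown experiment, those of shA1 and shB2 carry a hairpin. Those pooled in the inhibitor experiment include MC2580. The tables were also normalized separately, and the experiments differ in time and, as far as is stated, in transduction. These differences cannot be told apart in the ratio, and whether it exceeds the spread between libraries was not tested.

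**Figure D2:**
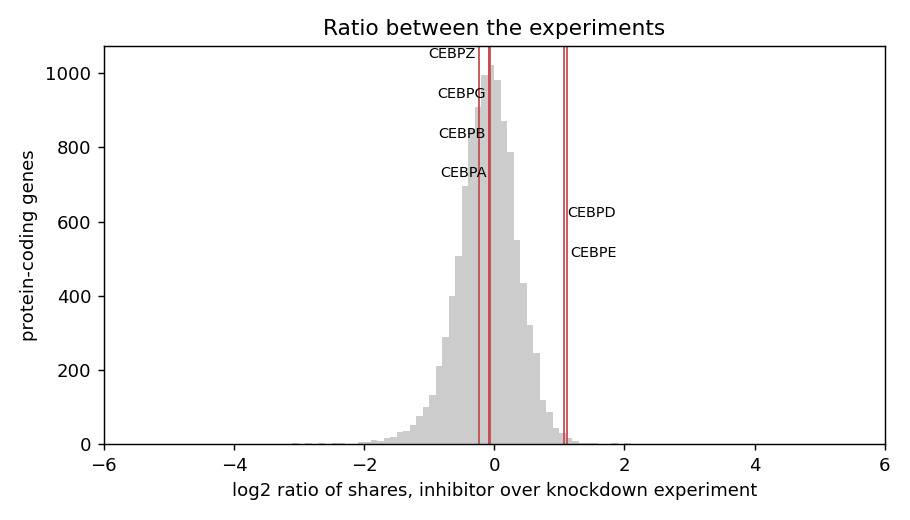
The histogram (grey) counts protein-coding genes by the log2 ratio of their share in the inhibitor experiment to that in the knockdown experiment, and red lines mark the C/EBP genes. CEBPD and CEBPE stand at 1.07 and 1.12 in the right tail, and CEBPA, CEBPB, CEBPG and CEBPZ lie between -0.23 and -0.07.

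NB4 cells were checked against markers of promyelocytes and other cells. Of 8 promyelocyte genes, 7 reached a base mean of 10 in each experiment, CD33, PML and RARA among them. The exception was ELANE, which encodes neutrophil elastase, at 1.10 and 3.87. By the same rule, 2 of 3 B cell, 2 of 3 epithelial and 1 of 3 fibroblast markers passed in both experiments. Of 3 T cell markers, 2 passed in the knockdown experiment and 1 in the inhibitor experiment. The share of all protein-coding genes that reached 10 was not counted, here or for the lists below, so these counts do not set a list apart. MPO, the myeloperoxidase of azurophil granules, had base means of 506765 and 824818. The 3 T cell markers summed to 901 in the knockdown experiment and 881 in the inhibitor experiment, nearly all of it CD3D, and the 3 B cell markers to 150 and 147. The 3 fibroblast markers summed to 14.6 and 14.7, and the 3 epithelial markers to 1338 and 1072 from KRT18 and EPCAM. GSE1, the target of the hairpins, had base means of 2963 and 4441, and KDM1A, which encodes LSD1, had 7648 and 6285. The effect of the hairpins on GSE1 was not examined here, since the pooled means do not separate the groups.

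Known targets of C/EBP factors in granulocytes and macrophages ranged from 0 to the top of the table. Of 18 such genes, 13 reached a base mean of 10 in the knockdown experiment and 12 in the inhibitor experiment. CSF2RA, whose 0 was not read as a level, is counted among those that did not. The share of all protein-coding genes that reached 10 was not counted. The median percentile of the 18 was 62.6 in the knockdown experiment and 64.0 in the inhibitor experiment, with CSF2RA at 0. Primary granule genes other than ELANE and AZU1, and lysozyme, were high. AZU1 had base means of 723 and 1814, at percentiles 76.6 and 89.6. PRTN3 (proteinase 3) had base means of 2511 and 4358, CTSG (cathepsin G) of 4012 and 6435, and LYZ (lysozyme) of 4923 and 9248. Genes of secondary granules were lower. LCN2 was listed at 0 in both tables, LTF (lactoferrin) at 0 and 1.16, and MMP8 at 0.084 and 0.918. CAMP, the cathelicidin of secondary granules, had base means of 29.2 and 4.15, at percentiles 43.4 and 30.7. CSF2RA was listed at 0 in both, as were all 45 genes of the tables that have an X and a Y pseudoautosomal copy, so its 0 was not read as a level.

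Receptors and surface proteins on the target list, CSF2RA aside, also differed widely. In the knockdown experiment they ran from 0.474 ppm per kb for CD14 to 15.0 for IL6R. CSF3R, the receptor for G-CSF, had base means of 2641 and 2562, and ITGAM, which encodes CD11b, had 2007 and 1407. IL6R had 4242 and 3401, and CD14 had 31.6 and 17.5. Of the 11 targets whose base means reached 50 in both tables, 5 had a ratio between the experiments above the 95th percentile, as CEBPD and CEBPE did. These were MPO at a log2 ratio of 0.68, PRTN3 at 0.77, AZU1 (azurocidin) at 1.30, CTSG at 0.66 and LYZ at 0.89. The median log2 ratio of the 11 was 0.10. ITGAM and S100A8 had log2 ratios of -0.54 and -0.50, and CSF3R of -0.07.

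All 12 bZIP partners and relatives on the list reached a base mean of 10 in both experiments. Their median percentile was 86.1 in the knockdown experiment and 84.9 in the inhibitor experiment. ATF4, a stress-response factor that can dimerize with C/EBP proteins, was the highest, at 209 and 254 ppm per kb, above every C/EBP gene. JUNB followed at 59.4 and 60.3 ppm per kb, close to CEBPA. DDIT3, which encodes the C/EBP-homologous inhibitor CHOP, had 18.7 and 16.0 ppm per kb, and BATF had 21.3 and 18.0. The lowest were ATF3 at 2.15 and 1.39, BATF3 at 2.18 and 1.89, and FOS at 3.93 and 1.76 ppm per kb. None of the 12 had a ratio between the experiments above the 95th percentile, and FOS, at a log2 ratio of -1.16, was below the 5th.

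All 10 regulators and cofactors reached the same base mean of 10 in both experiments, with a median percentile of 84.5 in the first and 76.2 in the second. SPI1, which encodes PU.1, the ETS factor that acts with C/EBP proteins on myeloid promoters, had 93.4 and 110 ppm per kb. MYB had 50.6 and 62.0, and GFI1, a SNAG-domain repressor, had 32.2 and 40.5 ppm per kb. TRIB1 and TRIB2 encode pseudokinases that bring C/EBPα to the ubiquitin ligase COP1 for degradation. TRIB2 had 16.1 ppm per kb in the knockdown experiment and 7.57 in the inhibitor experiment, a log2 ratio of -1.09 and the only 1 of the 10 below the 5th percentile. TRIB1 had 4.98 and 4.24, and COP1 had 10.9 and 7.71 ppm per kb.

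**Figure D3:**
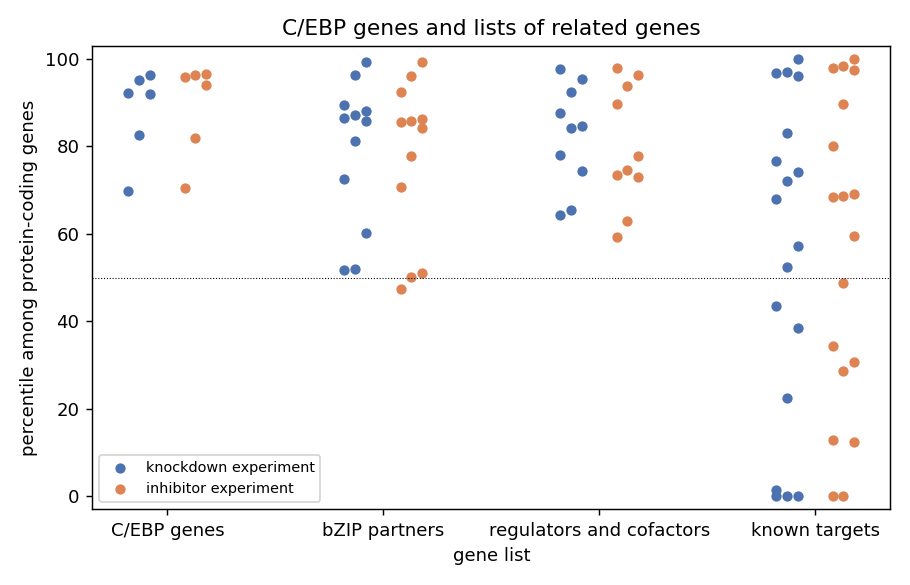
Each point is a gene, placed by the percentile of its share in ppm per kb among protein-coding genes, in the knockdown experiment (blue) and the inhibitor experiment (orange); the dotted line is the median gene and the sideways offset only separates points. The C/EBP genes lie between 69.9 and 96.6, while the known targets spread from 0 to 99.97.

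The 6 genes fall into separate kinds of transcript. On GRCh38, CEBPA (ENSG00000245848.3) spans 33299934 to 33302534 on the minus strand of chromosome 19 as a single exon of 2601 bases. CEBPG (ENSG00000153879.9) lies on the plus strand of the same chromosome, from 33373685 to 33382686, with a gap of 71150 bases between the genes. CEBPB (ENSG00000172216.5) is a single exon of 1839 bases on chromosome 20, from 50190830 to 50192668. CEBPD (ENSG00000221869.4) is likewise a single exon, of 1252 bases, on chromosome 8 from 47736913 to 47738164. CEBPE (ENSG00000092067.5) spans 23117036 to 23120256 on chromosome 14, and its canonical transcript has 2 exons and 843 coding bases. CEBPZ (ENSG00000115816.15) spans 37201612 to 37231596 on chromosome 2, with 16 exons and 3162 coding bases in its canonical transcript.

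The canonical transcripts of CEBPA, CEBPB, CEBPD and CEBPE were rich in G and C, at 65.9%, 66.2%, 66.0% and 64.7%, against a median of 49.2% over 19887 protein-coding genes. CEBPG had 41.3% and CEBPZ 39.0%, at percentiles 20.3 and 11.2. The part of base composition in the levels was not tested.

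Several of the genes overlap transcripts of the other strand. CEBPZ shares 351 exon bases with CEBPZOS, a protein-coding gene with base means of 1490 and 1642, and 408 with the lncRNA ENSG00000272054, at 79.4 and 84.8. CEBPA shares 659 and 482 exon bases with 2 lncRNAs, ENSG00000267580 and ENSG00000267727, whose base means were 330 and 394 in the knockdown experiment and 764 and 251 in the inhibitor experiment. CEBPB shares 231 exon bases with CEBPB-AS1, at 17.5 and 22.3. The library kit does not keep the strand, so reads from these stretches cannot be told apart. CEBPD, CEBPE and CEBPG share no exon base with another annotated gene. CEBPA-DT, the divergent lncRNA beside CEBPA, had base means of 240 and 394.

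The promoters of the genes differ in the letters near the start site. RefSeq windows on GRCh38.p14, from 250 bases before to 50 after an annotated start, were found for 5 of the 6 genes, 7 windows in all, and not for CEBPD. Stretches of 100 bases, 90 before the start and 10 from it on, are printed 5′ to 3′, with matches to the searched motifs in capitals. The CEBPZ stretch holds no match. The CEBPE stretch lies inside the annotated span of that gene, which reaches 23120256, so its start is not the outermost annotated one.
CEBPA, minus strand, chr19:33302525-33302624: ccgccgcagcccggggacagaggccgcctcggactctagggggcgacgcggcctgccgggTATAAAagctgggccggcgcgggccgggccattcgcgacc
CEBPB second start, plus strand, chr20:50190740-50190839: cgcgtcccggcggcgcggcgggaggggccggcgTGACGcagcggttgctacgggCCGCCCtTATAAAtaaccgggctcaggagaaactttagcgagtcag
CEBPE, minus strand, chr14:23119246-23119345: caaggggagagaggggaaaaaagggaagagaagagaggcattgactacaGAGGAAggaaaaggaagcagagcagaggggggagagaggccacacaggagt
CEBPG first start, plus strand, chr19:33373619-33373718: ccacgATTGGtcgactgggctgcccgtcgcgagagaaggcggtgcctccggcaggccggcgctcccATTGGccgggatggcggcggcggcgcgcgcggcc
CEBPZ, minus strand, chr2:37231587-37231686: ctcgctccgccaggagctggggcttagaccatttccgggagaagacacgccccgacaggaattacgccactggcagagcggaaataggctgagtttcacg

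The search covered 8 motifs on both strands. They included the CCAAT box (CCAAT), a loose C/EBP pattern (TTNNGNAA), the GC box (GGGCGG) and the TATA box (TATAAA). The others were the PU.1 core (GAGGAA), part of the GFI1 site (AAATCA), the core of the CRE (TGACG) and the E box (CACGTG). The TATA box lay 30 bases before the start of CEBPA and 29 before the second start of CEBPB, with no match in the window of the first, and 11.5% of all 35116 windows hold these letters. CCAAT was found on the opposite strand 85 and 24 bases before the first CEBPG start, and CCAAT also lay 245 bases before the second CEBPB start, against 34.6% of all windows with a match. The GC box was found 2 times in the CEBPA window and 6 and 5 times in the 2 overlapping windows of CEBPB and 2 times in the second CEBPG window, and 45.0% of all windows hold it. GAGGAA stood 41 bases before the start of CEBPE, whose window holds no other match, and 223 bases before that of CEBPZ, and 27.9% of all windows hold these letters. No window of a C/EBP gene held TTNNGNAA, AAATCA or CACGTG, which were found in 36.8%, 13.2% and 7.26% of all windows. TGACG was found in the second CEBPB window and in that of CEBPZ, against 24.6% of all windows. The windows of CEBPA, CEBPB and CEBPG lay at percentiles 93.4 to 98.1 of all windows for G and C content. The percentages over all windows were not matched for this content.

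The windows also differed in base composition. That of CEBPE was 57.7% G and C with 2 CpG dinucleotides, and that of CEBPZ was 62.7% with 26. The CEBPA window was 80.7% G and C with 50 CpG dinucleotides. The windows of CEBPB and CEBPG had between 31 and 45 CpG dinucleotides. The median window over all genes was 58.7% G and C. These matches describe the sequence near the start and were not set against the levels.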

How the data were processed

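mRNA-seq libraries of NB4 cells were prepared by the authors with the TruSeq RNA v2 kit, mapped to hg38 with STAR (2.7 in the submitters' processing notes), quantified with RSEM and compared in DESeq2. The annotation release is not given in the sources used here. The signal values deposited by the authors and used here are base means, averages of normalized counts taken to cover all libraries of an experiment. The remaining columns hold the authors' own comparisons (log2 fold changes, standard errors, Wald statistics and p-values), and were not used. As the tables gave no counts per library, the planned tests between conditions were not run. Protein sequences were not used here.

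Shares in parts per 1000000 of the summed base mean (ppm), percentiles (ties counted in the middle) and ratios were computed with Python 3.11.15 and pandas 2.3.3. Ratios were taken over protein-coding genes whose base means reached 50 in both tables. Lengths came from GENCODE release 44 on GRCh38, to which 60261 identifiers matched. Promoter windows came from RefSeq (GRCh38.p14). Ranking and motif search were tested on simulated data. Genes named are the 6 members, their overlapping neighbours, GSE1, KDM1A and fixed lists. The members and lists were chosen with earlier results of these data known. The lncRNAs that overlap CEBPA and CEBPZ were named after their values were seen. A further marker list is not reported here.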

Additional observations from a re-analysis of the deposited data

How the results depend on the processing

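Restricting the denominator to protein-coding genes moved the summed share of the 6 C/EBP genes from 495 to 503 ppm in the knockdown experiment and from 567 to 577 in the inhibitor experiment, and leaving out mitochondrial genes moved it to 517 and 597. The ratio of the highest to the lowest length-scaled level went from 9.05 to 12.8 in the knockdown experiment with the median coding transcript as length. In the inhibitor experiment it went from 10.6 to 14.8 with the longest transcript and to 15.7 with the median coding transcript. The lowest percentile of a C/EBP gene fell from 69.9 to 58.6 and from 70.5 to 60.0 among genes whose base mean reached 10, and rose to 73.8 and 74.7 with all protein-coding genes. Median-of-ratios scaling raised each fold between the experiments 1.07-fold, to 2.32 for CEBPE and 2.24 for CEBPD, and turned the direction for CEBPA, CEBPB and CEBPG.
No paired analysis was possible because the columns used are means over all libraries. For the same reason no replicate could be left out, and the alternatives planned for counts per library were not run.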
